A study of Homo sapiens with 12 samples.

Results

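Cytochrome b5 and its reductases were followed as 6 genes, CYB5A, CYB5B, CYB5R1, CYB5R2, CYB5R3 and CYB5R4, found by symbol among the 4918 genes with values. Shares of all genes below are shares of these 4918. Every gene whose value is given here has a symbol that begins with a letter from A to F. Partners of cytochrome b5 with later symbols are therefore not covered. All 6 had a mean above 1 FPKM (fragments per kilobase of transcript, relative to all mapped fragments of the sample), as did 3177 of the 4918 genes. The family was chosen by the level of CYB5R3 in SB-3CT against Control, where this gene was among the largest rises, so that contrast, and every contrast holding its samples for CYB5R3, is given as a description with no test. RNA was sequenced from A375, an established human melanoma cell line, in 12 samples, 3 in each of 4 groups. Control cells were labelled as untreated (the treatment protocol names a vehicle), the second group received SB-3CT, a small-molecule inhibitor of the gelatinases MMP2 and MMP9, the third received the cytokine IFN-γ, and the fourth received SB-3CT+IFN-γ, each for 24 h. The cells of all groups are of 1 line, and nothing in the labels says that the 3 samples of a group came from separate cultures, so p-values measure only the spread between these samples.

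Cytochrome b5 is a small heme protein, held in a membrane by its tail, that hands single electrons to enzymes which desaturate, elongate or hydroxylate lipids and drugs. It receives these electrons from NADH through cytochrome b5 reductase, a flavoprotein. CYB5A encodes the form of the endoplasmic reticulum, and in red cells a soluble form, while CYB5B encodes the form of the outer mitochondrial membrane. CYB5R3 is the main reductase, which in red cells keeps hemoglobin reduced and is the enzyme lost in recessive methemoglobinemia. CYB5R1 and CYB5R2 are its close homologs, and CYB5R4 (also called Ncb5or) carries a cytochrome b5 domain and a reductase domain in 1 chain.

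In hg19, with GENCODE annotation, the main transcript of CYB5A (ENSG00000166347) lies on the minus strand of chromosome 18, from 71918081 to 71959198, with 5 exons, and that of CYB5B (ENSG00000103018) on the plus strand of chromosome 16, from 69458522 to 69500167, also with 5 exons. CYB5R1 (ENSG00000159348) lies on chromosome 1 from 202931001 to 202936385 (minus strand, 9 exons) and CYB5R2 (ENSG00000166394) on chromosome 11 from 7686335 to 7694731 (minus strand, 9 exons). CYB5R3 (ENSG00000100243) lies on chromosome 22 from 43013846 to 43045398 (minus strand, 9 exons) and CYB5R4 (ENSG00000065615) on chromosome 6 from 84569408 to 84677142 (plus strand, 16 exons). The longest models of CYB5R3 reach over A4GALT, a glycosyltransferase gene on the same strand, whose level stayed between 1.15 and 2.83 FPKM over the 12 samples. The coding genes ATP5MGL and ENSG00000289517 also overlap CYB5R3 on that strand. Their levels are not given here, so reads shared with them cannot be judged. CYB5B overlaps TERF2 on the other strand, and CYB5A has processed pseudogenes, so reads of these 2 genes may be shared in part with those loci.

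The start regions of the reductase that differed most between groups, CYB5R3, and of the fused member, CYB5R4, are shown because they hold different sets of short elements known from xenobiotic, oxidant and interferon responses. RefSeq (GRCh38.p14) gave start sites for 5 of the 6 members, 9 sites in all, and the 250 bases before each were searched on both strands for the xenobiotic response element core GCGTG, the antioxidant response element core TGACNNNGC and the gamma-activated site TTCNNNGAA, whose matches do not overlap each other in the windows printed here. Of 35116 windows of the same length, 32.2% held GCGTG, 10.9% held TGACNNNGC and 6.57% held TTCNNNGAA. The window of the outermost CYB5R3 start (chr22:42649393-42649642, minus strand) held none of them and was 75.2% G or C. The window of the innermost CYB5R3 start (chr22:42644627-42644876, minus strand) held an antioxidant core that begins 211 bases before the start and a xenobiotic core that begins 55 bases before it. The window of CYB5R4 (chr6:83859439-83859688, plus strand) held a gamma-activated site 171 bases before the start and, on the other strand, an antioxidant core 48 bases before it. Matches are in capitals, and each line reads 5′ to 3′ up to the start.
CYB5R3, outermost start: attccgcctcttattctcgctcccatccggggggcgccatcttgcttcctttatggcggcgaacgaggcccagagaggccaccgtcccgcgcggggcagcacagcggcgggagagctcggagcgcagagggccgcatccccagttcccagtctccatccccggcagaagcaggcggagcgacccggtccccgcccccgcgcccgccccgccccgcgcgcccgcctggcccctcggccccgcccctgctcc
CYB5R3, innermost start: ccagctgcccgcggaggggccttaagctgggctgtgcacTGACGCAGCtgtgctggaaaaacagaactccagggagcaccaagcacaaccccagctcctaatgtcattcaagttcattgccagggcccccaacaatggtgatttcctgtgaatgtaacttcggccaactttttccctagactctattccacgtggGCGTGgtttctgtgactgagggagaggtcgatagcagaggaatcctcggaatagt
CYB5R4: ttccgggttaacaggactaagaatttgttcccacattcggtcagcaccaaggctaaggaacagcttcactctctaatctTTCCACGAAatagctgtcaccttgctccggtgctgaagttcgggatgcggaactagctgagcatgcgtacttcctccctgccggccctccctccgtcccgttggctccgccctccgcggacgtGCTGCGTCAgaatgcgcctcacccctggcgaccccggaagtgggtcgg

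The remaining CYB5R3 start held none of the 3 elements, nor did the window of CYB5B. A xenobiotic core stood in 1 of the 3 windows of CYB5R2, 73 bases before the start, and the CYB5A window held 2 on its other strand, 223 and 140 bases before the start. The values below are per gene and do not say which start was in use, and a match is no evidence that a factor was bound.

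The IFN-γ labels were checked with CXCL10, an IFN-γ-induced chemokine gene. Control gave 0, 0 and 0.050 FPKM, SB-3CT samples were all at 0, and the gene measured 78.7, 86.2 and 80.3 FPKM in IFN-γ and 96.5, 117 and 122 FPKM in SB-3CT+IFN-γ. Of 7 melanocyte lineage and neural crest markers, 6 had a mean above 1 FPKM, while the melanin-pathway gene DCT stayed between 0.026 and 0.384 FPKM. No fibroblast or endothelial marker measured here had a mean above 1 FPKM, and 1 epithelial (CLDN4) and 1 leukocyte (CD68) marker did. Depth per sample is unknown, since the files give no counts. Between SB-3CT+IFN-γ and IFN-γ the median change of the genes above 1 FPKM was −0.20 on the log2 scale, and after each sample was scaled by its median ratio to the mean of all samples it was 0.00. Of the genes called in that comparison 83.1% were lower, against 51.5% after median ratio scaling, 56.8% after quantile normalization and 33.05% after removal of the trend with transcript length. Log2 differences from IFN-γ are therefore given below on the deposited and the median ratio scale, while levels in FPKM and family sums are on the deposited scale.

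CYB5R3 was the member whose level set the groups apart. It measured 21.5, 22.0 and 22.3 FPKM in Control and 47.1, 48.8 and 47.4 FPKM in SB-3CT. With IFN-γ it measured 23.4, 22.2 and 22.4 FPKM, and with SB-3CT+IFN-γ 20.7, 18.1 and 17.8 FPKM. The 3 SB-3CT samples were thus far above the other 9. On the deposited scale the SB-3CT+IFN-γ samples were the lowest, with no overlap with IFN-γ or Control. The mean in SB-3CT was 2.18 times that in Control, a difference of 1.09 ± 0.04 (SE) in log2(FPKM + 1), the contrast on which the family was chosen. In SB-3CT+IFN-γ the mean was 0.394 times that in SB-3CT, a log2 difference of −1.30 ± 0.06 (SE), or −1.06 after median ratio scaling. After that scaling SB-3CT lay 1.12 above Control, so the mean of SB-3CT+IFN-γ was no longer below that of Control.

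**Figure D1:**
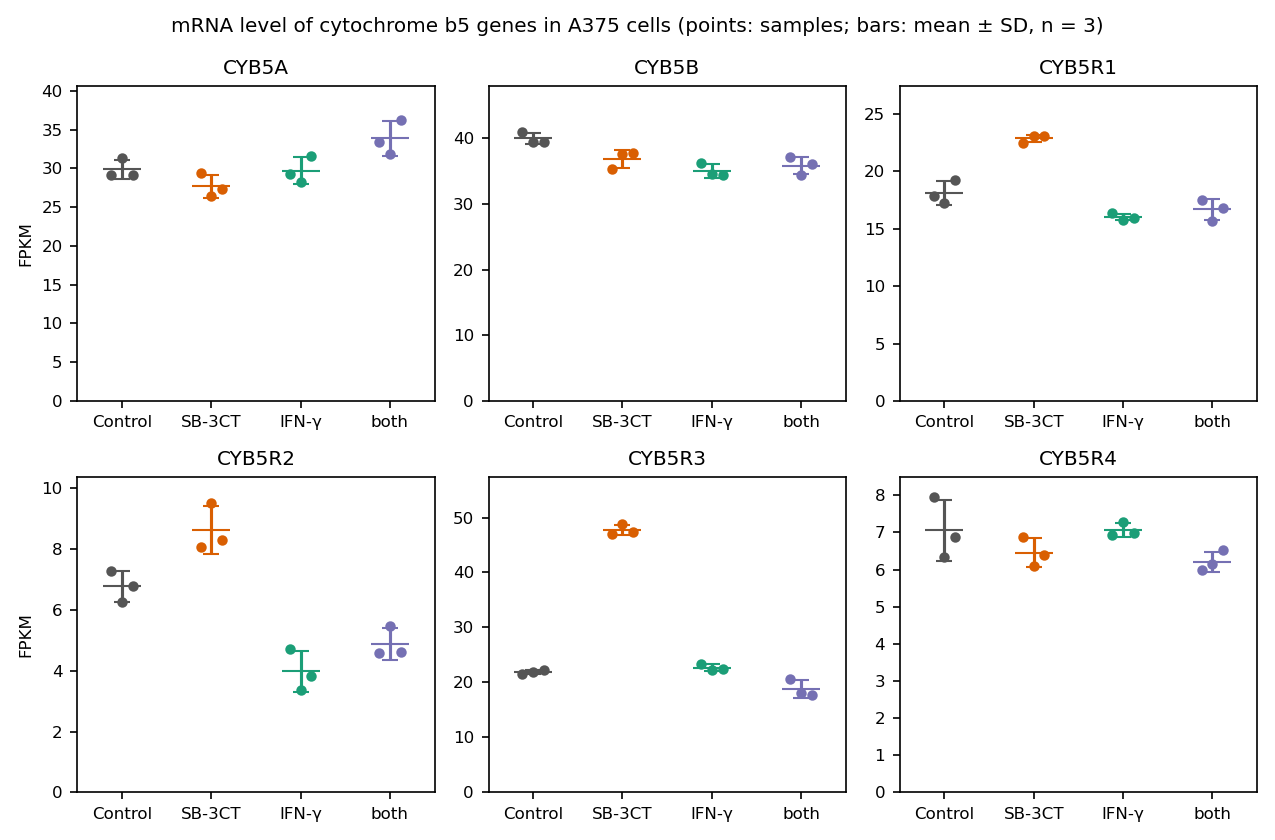
FPKM of each member (vertical axes, each from 0) in the 4 groups, where both stands for SB-3CT+IFN-γ, points are samples and bars are mean ± SD (n = 3). The 3 SB-3CT samples of CYB5R3 sit between 47.1 and 48.8 FPKM and the other 9 between 17.8 and 23.4 FPKM.

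Against IFN-γ alone, a comparison that shares no sample with the one that chose the gene, CYB5R3 fell with SB-3CT+IFN-γ by 0.26 on the log2 scale (SE 0.07, limma, adjusted p = 0.0225), from 22.7 ± 0.622 to 18.8 ± 1.60 FPKM (SD, n = 3). The fall did not pass the test after median ratio scaling, where the difference was −0.03 (limma, adjusted p = 0.772), nor when SB-3CT+IFN-γ replicate 2 or 3 or IFN-γ replicate 1 or 3 was left out, with limma adjusted p between 0.0720 and 0.0859. CYB5R3 was therefore higher with SB-3CT in the absence of IFN-γ and not higher with it in the presence of IFN-γ on either scale. The difference between these SB-3CT changes was −1.35 ± 0.08 (SE) on the log2 scale and −1.15 after median ratio scaling, given with no test since it holds the samples that chose the gene. On the deposited scale CYB5R3 was the 1 member of 6 whose groups did not overlap in either SB-3CT comparison and lay in opposite directions. This pattern was found in 4.86% of all genes. It is a description only, since it holds the contrast that chose the gene, and the fall within it was −0.03 after median ratio scaling.

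The close homologs CYB5R1 and CYB5R2 were also higher with SB-3CT alone, by less. CYB5R1 measured 17.9, 17.3 and 19.3 FPKM in Control and 22.5, 23.0 and 23.1 FPKM in SB-3CT, a log2 difference of 0.32 ± 0.05 (SE). In IFN-γ it measured 16.3, 15.8 and 15.9 FPKM, and in SB-3CT+IFN-γ 17.5, 15.7 and 16.8 FPKM. Its SB-3CT samples were above all others, and the 2 groups with IFN-γ overlapped. CYB5R2, the least abundant member where IFN-γ was present, measured 7.29, 6.27 and 6.77 FPKM in Control, 8.06, 9.52 and 8.29 FPKM in SB-3CT, 4.72, 3.37 and 3.82 FPKM in IFN-γ and 4.56, 5.47 and 4.60 FPKM in SB-3CT+IFN-γ. On the deposited scale all 6 samples with IFN-γ were below the 6 without it. The SB-3CT samples were above Control by 0.31 ± 0.08 (SE) on the log2 scale. After median ratio scaling IFN-γ lay 0.61 below Control and SB-3CT+IFN-γ 0.50 below SB-3CT, but samples of SB-3CT+IFN-γ and Control overlapped.

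The fourth reductase, CYB5R4, did not share the higher level with SB-3CT. It measured 7.95, 6.34 and 6.87 FPKM in Control, 6.88, 6.09 and 6.39 FPKM in SB-3CT, 6.94, 7.28 and 6.97 FPKM in IFN-γ and 5.98, 6.14 and 6.51 FPKM in SB-3CT+IFN-γ. Control and SB-3CT overlapped (log2 difference −0.11 ± 0.09, SE), and SB-3CT+IFN-γ lay below IFN-γ with a difference that did not pass the test (−0.16 ± 0.07, SE, limma, adjusted p = 0.103) and was 0.05 after median ratio scaling. For CYB5R4, IFN-γ and Control differed by 0.01 ± 0.08 (SE), and any part of the gamma-activated site letters in its start region was not tested.

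The electron carriers moved within a narrower range than CYB5R3. CYB5A measured 29.2, 31.3 and 29.1 FPKM in Control, 29.4, 26.5 and 27.3 FPKM in SB-3CT, 29.3, 28.3 and 31.6 FPKM in IFN-γ and 33.4, 31.9 and 36.3 FPKM in SB-3CT+IFN-γ. The last group lay above the others without overlap, and Control, SB-3CT and IFN-γ overlapped. Against IFN-γ its difference of 0.18 ± 0.07 (SE) did not pass the test on the deposited scale (limma, adjusted p = 0.0713) and was 0.41 after median ratio scaling (limma, adjusted p = 0.00612). CYB5B measured 41.0, 39.5 and 39.5 FPKM in Control, 35.4, 37.6 and 37.7 FPKM in SB-3CT, 36.3, 34.5 and 34.4 FPKM in IFN-γ and 37.1, 34.4 and 36.1 FPKM in SB-3CT+IFN-γ. On the deposited scale Control was the highest group, and the 3 treated groups overlapped. After median ratio scaling CYB5B in SB-3CT lay 0.08 below Control, and in SB-3CT+IFN-γ 0.20 above SB-3CT. On that scale SB-3CT+IFN-γ, and not Control, had the highest mean.

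With IFN-γ alone, 2 of the 5 members tested fell and none rose. CYB5R2 fell to 0.587 times its Control FPKM, by 0.65 on the log2 scale (SE 0.11, limma, adjusted p = 0.0117), and CYB5B fell by 0.19 (SE 0.04, limma, adjusted p = 0.0240). CYB5R1 was lower in every IFN-γ sample than in every Control sample, with a difference of −0.17 ± 0.05 (SE) that did not pass the test (limma, adjusted p = 0.0745), but did after quantile normalization and with all 4 groups in one fit (limma, adjusted p = 0.0467 and 0.0360). CYB5A and CYB5R4 differed by −0.01 and 0.01 (limma, adjusted p = 0.960 and 0.976). CYB5R3, given with no test because Control entered the contrast that chose it, differed by 0.05 ± 0.04 (SE). Of all genes 19.5% were called in this comparison, 8.46% as higher and 11% as lower. The groups did not overlap for 3 of the 6 members, against 36.9% of all genes. The call of CYB5R2 was lost without Control replicate 1 or 3 (limma, adjusted p = 0.0516 and 0.0510) and that of CYB5B without IFN-γ replicate 3 or any single Control (limma, adjusted p from 0.0676 to 0.0943).

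With SB-3CT added to IFN-γ, 1 of the 6 members passed the test on the deposited scale, the fall of CYB5R3 above, where 37.9% of all genes were called, 6.41% as higher and 31.5% as lower. After median ratio scaling 4 members were called, all higher, and CYB5R3 and CYB5R4 were not, where 32% of all genes were called, 15.5% as higher and 16.5% as lower. These were CYB5A, CYB5B (0.27, limma, adjusted p = 0.00732), CYB5R1 (0.28, limma, adjusted p = 0.0103) and CYB5R2 (0.45, limma, adjusted p = 0.0156), whose differences on the deposited scale were 0.03, 0.05 and 0.25 for the last 3, none of them past the test (limma, adjusted p = 0.679, 0.532 and 0.153). The groups did not overlap for 3 of the 6 members on the deposited scale (CYB5A higher, CYB5R3 and CYB5R4 lower), against 49% of all genes. The summed level of the melanocyte lineage and neural crest markers also differed between these groups, with 154 to 166 FPKM in IFN-γ and 112 to 119 FPKM in SB-3CT+IFN-γ, and its part in the family's values was not tested.

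**Figure D2:**
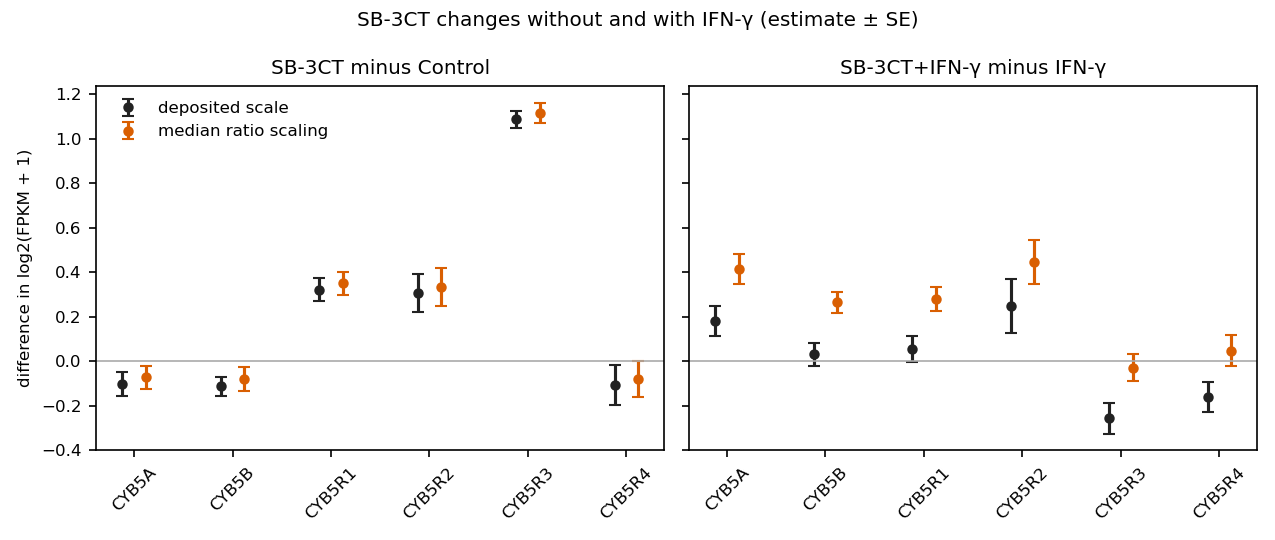
Difference in log2(FPKM + 1) ± SE for each member (horizontal axis) between SB-3CT and Control (left) and between SB-3CT+IFN-γ and IFN-γ (right), on the deposited scale (black) and after median ratio scaling (orange). CYB5R3 stands at 1.09 on the left and at −0.26 (deposited) or −0.03 (scaled) on the right, and the scaling lifts all 6 members on the right.

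As a description, SB-3CT and Control did not overlap for 4 of the 6 members, against 33.9% of all genes, with CYB5R1, CYB5R2 and CYB5R3 higher and CYB5B lower (−0.11 ± 0.04, SE). SB-3CT+IFN-γ and SB-3CT likewise did not overlap for 4 members, against 51.7% of all genes. Of these CYB5A was higher by 0.28, and CYB5R1, CYB5R2 and CYB5R3 differed by −0.43, −0.71 and −1.30 on the log2 scale. After median ratio scaling the values were 0.52, −0.20, −0.50 and −1.06, so their signs did not depend on the scale, while CYB5B and CYB5R4 went from −0.04 and −0.05 to 0.20 and 0.17.

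The order of the levels, per transcript length, changed at its top with SB-3CT. In Control the order from the highest was CYB5B (40.0003 ± 0.897 FPKM), CYB5A (29.9 ± 1.27), CYB5R3 (21.9 ± 0.388), CYB5R1 (18.1 ± 1.02), CYB5R4 (7.05 ± 0.822) and CYB5R2 (6.77 ± 0.508; SD, n = 3 for each), and of these neighbours CYB5R4 and CYB5R2 overlapped. In SB-3CT CYB5R3 came first with 47.7 ± 0.908 FPKM, ahead of CYB5B with 36.9 ± 1.33 FPKM and CYB5A with 27.7 ± 1.49 FPKM, and CYB5R2 (8.62 ± 0.785 FPKM) stood above CYB5R4 (6.45 ± 0.397 FPKM), with no overlap between neighbours. In IFN-γ the order was that of Control, with CYB5R4 (7.06 ± 0.188 FPKM) and CYB5R2 (3.97 ± 0.688 FPKM) apart. In SB-3CT+IFN-γ CYB5B (35.9 ± 1.35 FPKM) and CYB5A (33.9 ± 2.22 FPKM) overlapped, and CYB5R3 (18.8 ± 1.60 FPKM) stood just above CYB5R1 (16.7 ± 0.922 FPKM) without overlap.

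The balance of reductase to carrier mRNA was highest in SB-3CT, as was CYB5R3, which is itself part of the reductase sum. Between IFN-γ and SB-3CT+IFN-γ the reductase sum was lower and the carrier sum higher, so both moved the ratio. The 4 reductase genes summed to 53.9 ± 1.78 FPKM in Control, 85.7 ± 1.54 in SB-3CT, 49.7 ± 1.46 in IFN-γ and 46.6 ± 1.87 in SB-3CT+IFN-γ (SD, n = 3). CYB5A and CYB5B together made 69.9 ± 1.14, 64.6 ± 0.467, 64.8 ± 1.73 and 69.7 ± 3.09 FPKM in the same order. The ratio of the sums was 0.772 ± 0.0364 in Control, 1.33 ± 0.0328 in SB-3CT, 0.768 ± 0.0209 in IFN-γ and 0.669 ± 0.0327 in SB-3CT+IFN-γ, so that reductase mRNA exceeded carrier mRNA in SB-3CT and in no other group, and a sample's overall scaling cancels from these ratios. CYB5R3 made up 40.7% ± 1.52 of the reductase sum in Control, 55.7% ± 0.0725 in SB-3CT, 45.6% ± 0.0836 in IFN-γ and 40.4% ± 1.81 in SB-3CT+IFN-γ. These sums are descriptions, since they contain the gene that chose the family, and they are mRNA levels rather than amounts of enzyme.

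**Figure D3:**
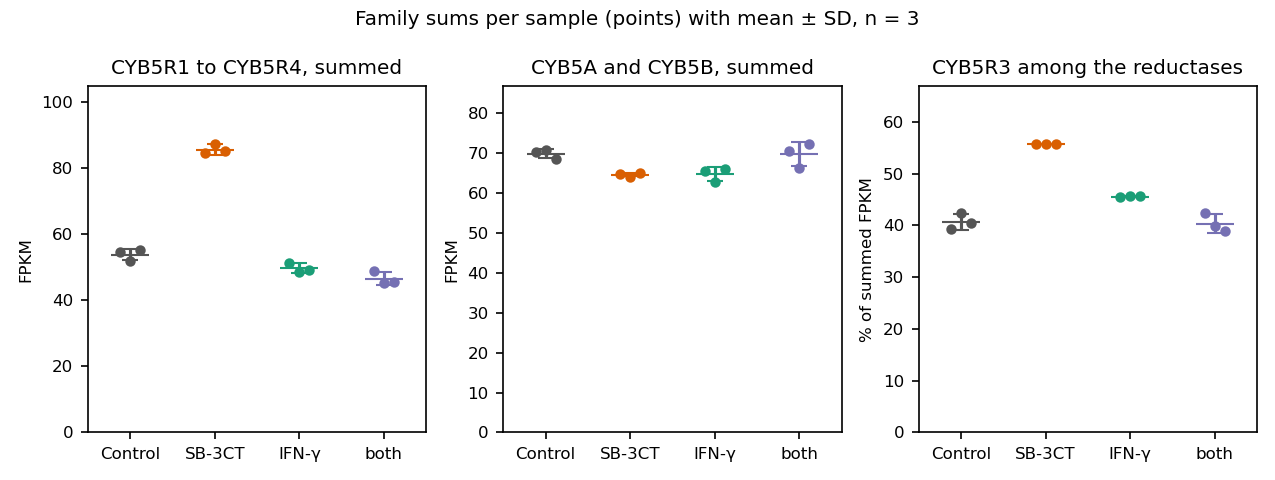
Summed FPKM of the 4 reductase genes (left), summed FPKM of CYB5A and CYB5B (middle) and the percent of the reductase sum that is CYB5R3 (right) in each sample (points), with mean ± SD (n = 3), where both stands for SB-3CT+IFN-γ and all axes start at 0. The reductase sum is near 85.7 FPKM in SB-3CT and between 46.6 and 53.9 FPKM on average elsewhere, while the carrier sum stays between 64.6 and 69.9 FPKM on average.

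The genes whose pattern was most like that of CYB5R3 over the 12 samples, among 3176 other genes above 1 FPKM, were CDK2, a kinase of the cell cycle (Pearson r = 0.961 on the deposited log2 scale), EEF2, the translation elongation factor (r = 0.955), CENPT, a centromere protein (r = 0.952), CLPTM1L, a membrane protein (r = 0.952), and ATG4D, a protease of autophagy (r = 0.948). These points share samples and group structure, and r is given with no test. The likeness lay in the SB-3CT samples. There the 5 genes were above Control by 0.51 (CDK2), 0.27 (EEF2), 0.41 (CENPT), 0.25 (CLPTM1L) and 0.40 (ATG4D) on the log2 scale, in each case under the 1.09 of CYB5R3. Between SB-3CT+IFN-γ and IFN-γ they differed by −0.08, −0.09, 0.01, −0.05 and −0.03 on the deposited scale and by 0.16, 0.15, 0.23, 0.19 and 0.20 after median ratio scaling, so the sign turned for 4 of the 5.

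**Figure D4:**
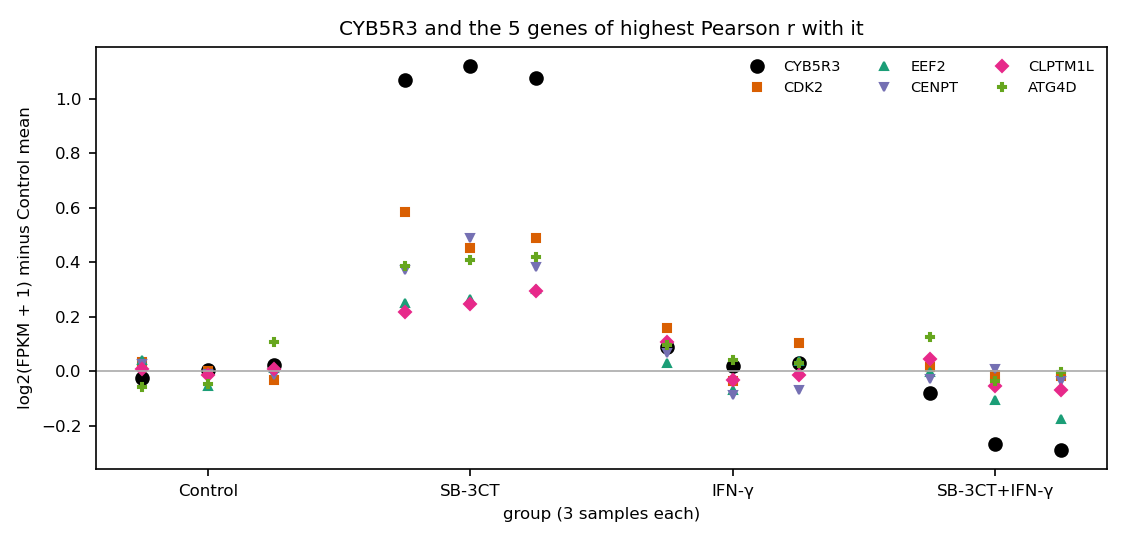
log2(FPKM + 1) of CYB5R3 and the 5 genes most like it, as the difference from each gene's own Control mean (vertical axis), in each of the 12 samples (points) by group. The SB-3CT samples stand above the other groups for all 6 genes, and CYB5R3 stands highest there and lowest in SB-3CT+IFN-γ replicates 2 and 3.

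Genes that work around cytochrome b5 were described from 7 lists holding 77 measured genes, some of them in more than 1 list. With SB-3CT added to IFN-γ, 6 rose and 20 fell, and after median ratio scaling 16 rose and 8 fell. With IFN-γ alone, 7 rose and 7 fell. Among all genes 6.41% rose and 31.5% fell with SB-3CT added to IFN-γ, and 15.5% and 16.5% did so after scaling. For IFN-γ alone these shares were 8.46% and 11%. Each list below is to be read beside these shares. Pooled, the genes of the lists were called about as often as any gene, 33.8% against 37.9%, or 31.2% against 32% after scaling. With IFN-γ alone it was 18.2% against 19.5%. Only 44 of the 77 genes had a mean above 1 FPKM, and the lists differed, so the pooled share stands for no single list. With SB-3CT added to IFN-γ the share called ran from 20.6% of the 34 cytochrome P450 rows to 63.6% of the lipid and sterol enzymes. After scaling the lists ran from 14.7% to 60%, and with IFN-γ alone from 0% to 45.5%. The median change over the 77 genes with SB-3CT added to IFN-γ was −0.02, against −0.09 over all genes, and 0.00 against −0.01 after scaling. With IFN-γ alone it was −0.01 against −0.02.

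The lipid desaturases, hydroxylases and sterol enzymes of the endoplasmic reticulum made up 11 genes, of which some but not all take electrons from cytochrome b5. With SB-3CT added to IFN-γ, where 31.5% of all genes fell and 6.41% rose, 6 of 11 fell and 1 rose. The list median was −0.33, against −0.20 for all genes above 1 FPKM. After median ratio scaling, where 16.5% of all genes fell and 15.5% rose, 4 fell and 2 rose, with a list median of −0.11. DHCR7, which makes cholesterol from its last precursor, fell by 0.63, and CYP51A1, the lanosterol demethylase, by 0.51 (limma, adjusted p = 0.00247 and 0.00379). After scaling both were still past the test, at −0.42 and −0.30 (limma, adjusted p = 0.00952 and 0.0131). With IFN-γ alone, where 11% of all genes fell and 8.46% rose, 4 of the 11 fell and 1 rose. Of these AGMO, an ether lipid monooxygenase that uses tetrahydrobiopterin, fell by 1.72, DHCR7 by 0.94 and CYP51A1 by 0.46 (limma, adjusted p = 1.59e-05, 0.000135 and 0.0180).

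Proteins with a cytochrome b5 domain of their own, or like the reductases, gave 1 rise and 3 falls among 7 with SB-3CT added to IFN-γ. After scaling they gave 1 rise and 2 falls. The shares of all genes that rose and fell were 6.41% and 31.5%, or 15.5% and 16.5% after scaling. CYB5D2, a heme-binding protein, fell by 0.45, FADS1, the delta-5 desaturase, by 0.42 and FADS2, the delta-6 desaturase, by 0.33 (limma, adjusted p = 0.00352, 0.00392 and 0.00846). After scaling CYB5D2 and FADS1 still passed (−0.23 and −0.19) and FADS2 did not (−0.11, limma, adjusted p = 0.142). With IFN-γ alone the 1 gene called was FADS3, which rose by 0.20 (limma, adjusted p = 0.0114). Of 7 fatty acid elongases, 4 fell and none rose with SB-3CT added to IFN-γ, where 31.5% of all genes fell. After scaling, where 16.5% of all genes fell, 2 elongases fell. On that scale ELOVL1, which elongates saturated and monounsaturated chains, rose by 0.19 (limma, adjusted p = 0.0352). None was called with IFN-γ alone. ELOVL6, which elongates saturated chains, fell by 0.66 and ELOVL4 and ELOVL5, which act on very long and polyunsaturated chains, by 0.41 and 0.34 (limma, adjusted p = 0.00418, 0.0219 and 0.00840). After scaling ELOVL6 was at −0.45 and passed (limma, adjusted p = 0.0188), and ELOVL4 and ELOVL5 were at −0.22 and −0.11 and did not.

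Cytochromes P450, some of which take their second electron from cytochrome b5, made up 34 rows, found by symbol and with antisense transcripts and pseudogenes included, and 7 of them had a mean above 1 FPKM. With SB-3CT added to IFN-γ 2 rose and 5 fell, and after scaling 3 rose and 2 fell, with a median of 0.00 on either scale. CYP1A1, the xenobiotic-induced enzyme, rose by 0.62 and by 0.83 after scaling (limma, adjusted p = 0.00268 and 0.00231). CYP1A1 was also higher in SB-3CT than in Control, by 1.01 on the log2 scale. In that contrast ALAS1, a heme synthesis gene, was also higher, by 0.95, while DHCR7 and AGMO were lower, with differences of −0.91 and −1.12. CYP4V2, a fatty acid hydroxylase, fell by 0.33 with SB-3CT added to IFN-γ (limma, adjusted p = 0.0372), which did not pass after scaling (−0.15, limma, adjusted p = 0.225), and rose by 0.99 with IFN-γ alone (limma, adjusted p = 0.00183), where 3 of the 34 rose and 1 fell.

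Of 5 genes of heme synthesis and breakdown, 2 rose and 1 fell with SB-3CT added to IFN-γ, and after scaling 3 rose and none fell, the third being BLVRA (0.33, limma, adjusted p = 0.00622). BLVRB, a biliverdin reductase that also acts as a flavin reductase, rose by 0.85 and ALAS1, the rate-limiting enzyme of heme synthesis, by 0.48 (limma, adjusted p = 0.00209 for each), and after scaling they stood at 1.08 and 0.71. ALAD, the next enzyme of heme synthesis, fell by 0.41 (limma, adjusted p = 0.00521) and was at −0.19 after scaling (limma, adjusted p = 0.0572). With IFN-γ alone BLVRB fell by 0.50 and BLVRA, a different biliverdin reductase, rose by 0.29 (limma, adjusted p = 0.0291 and 0.0172). After scaling the fall of BLVRB did not pass (−0.46, limma, adjusted p = 0.0742).

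Among 9 other cytochromes, 1 rose and 2 fell with SB-3CT added to IFN-γ, and after scaling 3 rose and none fell. CYCS, the soluble cytochrome c of mitochondria, rose by 0.37, CYBRD1, a ferric reductase, fell by 0.36 and CYB561, an ascorbate-linked cytochrome, fell by 0.20 (limma, adjusted p = 0.00444, 0.0322 and 0.0363). After scaling CYCS was at 0.60 and passed, CYBRD1 was at −0.17 and CYB561 at 0.03, and neither passed. With IFN-γ alone CYB561 rose by 0.44 and CYCS fell by 0.35 (limma, adjusted p = 0.00224 and 0.00148). Of 9 genes named for coenzyme Q, another electron acceptor of CYB5R3, 2 fell and none rose with SB-3CT added to IFN-γ. After scaling 4 rose and none fell. COQ10B and COQ7 fell by 0.37 and 0.25 (limma, adjusted p = 0.00850 and 0.0280) and were at −0.15 and −0.03 after scaling, neither past the test. With IFN-γ alone COQ4 rose by 0.21 and COQ9 fell by 0.18 (limma, adjusted p = 0.0456 and 0.0357).

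**Figure D5:**
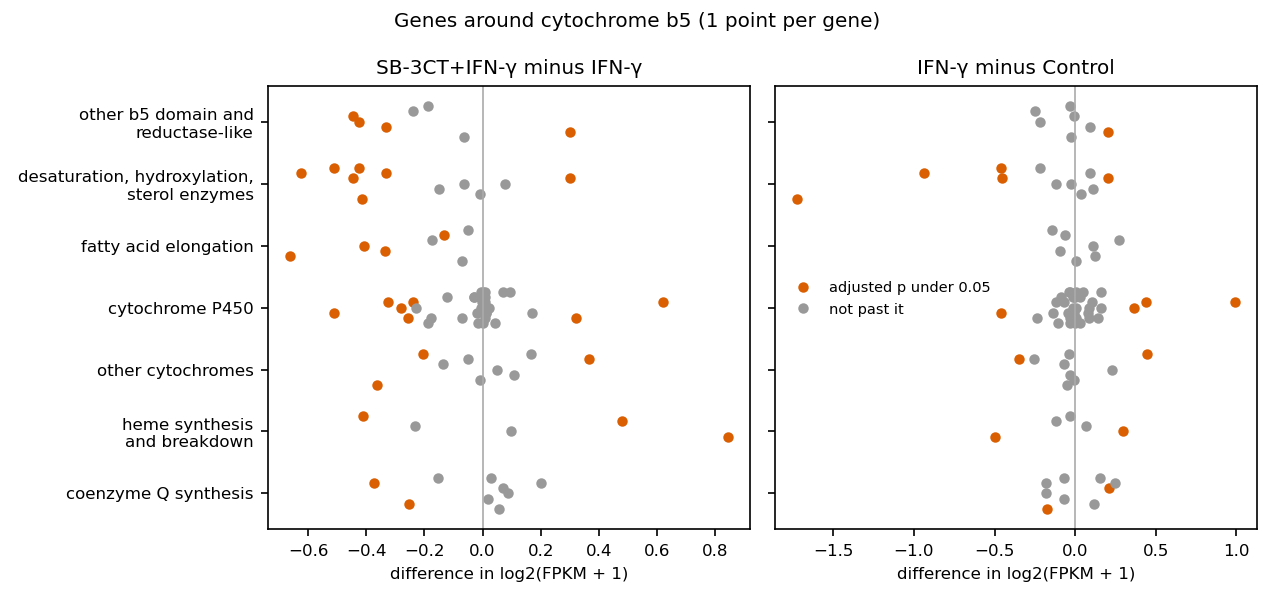
Difference in log2(FPKM + 1) (horizontal axes, deposited scale) of each gene in the 7 lists (vertical axis) between SB-3CT+IFN-γ and IFN-γ (left) and between IFN-γ and Control (right), in orange where the limma adjusted p was under 0.05. Of the 77 genes 6 are orange to the right of 0 and 20 to the left of it in the left panel, and 7 and 7 in the right panel.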

How the data were processed

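RNA from 12 A375 samples was sequenced, and per the labels and methods the authors aligned reads to hg19 with HISAT2 2.0.5 and estimated FPKM with StringTie 1.3.3 (versions from the submitters' processing notes). The authors deposited log2 values, read here as log2(FPKM + 1) because they reach at most 12.1639, and FPKM was taken as 2 to the power of the value minus 1. They cover 4918 genes, sum to between 121928 and 129692 FPKM per sample, and carry no counts, so depth is unknown and no counting error is given. FPKM is relative to each sample's total, so a few abundant genes or a trend with transcript length can shift all other genes.

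Samples were grouped by their labels, and 0 columns of values were left unused. Each comparison was fitted in limma (version 3.58.1, R 4.3.3; lmFit, eBayes with a variance trend, two-sided, 3 samples against 3, no low-value filter), with Benjamini-Hochberg adjustment over all 4918 genes and a threshold of 0.05. The smallest p of an exact permutation test with such groups is 0.1. A fold change on the log2(FPKM + 1) scale understates changes of low genes. The functions were tested on simulated data.

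The members, the lists of related genes and the tests were chosen with earlier results of these data known, and the motifs were chosen after values had been seen. Named beside the members are up to 3 called genes a list and comparison with the largest change and a mean FPKM of at least 1, the 5 genes of highest r with CYB5R3, CXCL10, A4GALT as an overlapping gene, and markers. A gene that the rule names is not reported here. Alternatives were 0.1 as the pseudocount, only genes averaging 1 FPKM or more, median ratio scaling, quantile normalization, removal of each sample's loess trend with transcript length (lengths for 98.8% of genes, GENCODE release mapped to hg19), all 4 groups in one fit, a replicate block, eBayes without trend and each sample left out. No protein sequence was used here.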

Additional observations from a re-analysis of the deposited data

Results flagged for a closer look

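CYB5R3 differed in opposite directions with SB-3CT in the absence and in the presence of IFN-γ. Every SB-3CT sample was above every Control sample, with a log2 difference of 1.09, and every SB-3CT+IFN-γ sample was below every IFN-γ sample, with a log2 difference of −0.26. The difference between the changes was not tested, because the gene was chosen on the first of them. After median ratio scaling the second value was −0.03.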

How the results depend on the processing

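The fall of CYB5R3 with SB-3CT added to IFN-γ (−0.26) was −0.029 after median ratio scaling, −0.092 after quantile normalization and −0.039 after removal of the length trend, none past the threshold, and lay between −0.32 and −0.22 with each sample left out. CYB5R4 turned from −0.16 to 0.27 when the length trend was removed (limma, adjusted p = 0.0279). The count of members called in that comparison, 1 as reported, was 4 after median ratio scaling, 4 after quantile normalization, 3 after removal of the length trend, 2 with all 4 groups in one fit, 2 without the variance trend and 0 to 1 with each sample left out. Called related genes there were 16 higher and 8 lower after median ratio scaling, 10 and 6 after quantile normalization, and 22 and 5 after removal of the length trend, with 5 to 7 higher and 14 to 22 lower when a sample was left out. For IFN-γ against Control, the count of 2 members was 0 to 2 with each sample left out, and 3 after quantile normalization or with all 4 groups in one fit, where CYB5R1 was also called. There, higher related genes numbered 11 with all 4 groups in one fit and 4 to 8 with a sample left out, and lower ones 11 after quantile normalization, 12 after removal of the length trend and 4 to 9 with a sample left out. CYB5R3 in SB-3CT against Control was 1.12 with a pseudocount of 0.1, 1.12 after median ratio scaling, 1.06 after quantile normalization and 1.07 to 1.10 with a sample left out. The difference of its SB-3CT changes was −1.15 under each of median ratio scaling, quantile normalization and removal of the length trend, and −1.41 to −1.31 with a sample left out, −1.41 being the value without SB-3CT+IFN-γ replicate 1. Causes of these shifts were not tested.

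With the replicate number as a block, CYB5R3 kept its call against IFN-γ (limma, adjusted p = 0.0319), and 1 and 2 members were called, as without it. The labels do not say whether samples of 1 number share more than that number. Correlations of their deviations ran from −0.33 to 0.17 over the 4 pairs of groups, which cannot settle it. Over all genes the block moved the calls from 1862 to 1609 for SB-3CT+IFN-γ against IFN-γ, from 958 to 775 for IFN-γ against Control, and from 602 to 259 for SB-3CT against Control. The number of samples and the unknown depth limit what can be said of small differences, and the scaling between SB-3CT+IFN-γ and the other groups limits every sign in that group that is close to 0.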
